A study of Homo sapiens with 30 samples.

Results

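The response of brain endothelial cells to vesicles from epinephrine-stimulated cells was set against their response to epinephrine itself. For each gene, the difference between EV-Epinephrine and EV-Control cells (the vesicle response) had the difference between Epinephrine and Control cells (the direct response) subtracted from it, on the log2 scale. This quantity, the interaction, was measured for all 15661 genes that passed a filter on low counts, out of 63138 genes, in 12 of the study's 30 libraries. The 567 genes that moved in opposite directions in the 2 arms are described in most detail. Genes that vesicles raised or lowered are those higher or lower in EV-Epinephrine than in EV-Control, and both of these groups received vesicles.

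All cells were hCMEC/D3, an immortalised endothelial cell line from human brain microvessels that serves as a blood-brain barrier model, and each of the 4 groups had 3 libraries. Control cells received only medium without serum and Epinephrine cells received 200 nM epinephrine, both for 12 h. EV-Control cells received extracellular vesicles enriched from the supernatant of unstimulated cells, and EV-Epinephrine cells received vesicles from cells stimulated with epinephrine, with 12 h in the titles. The sources used here give no vesicle dose and no measure of epinephrine left in the vesicle preparations, and they do not say whether the 3 libraries of a group came from separate cultures or separate vesicle preparations, so p-values measure only the spread between these libraries. EV-Control cells differ from Control cells by vesicles alone as far as the labels state, and the 2 arms share no library.

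Epinephrine acts on endothelial cells through adrenergic receptors. Beta receptors raise cyclic AMP, which activates protein kinase A and the exchange factor EPAC1, and protein kinase A phosphorylates the transcription factor CREB, which binds cAMP response elements. Extracellular vesicles are membrane particles that carry protein, lipid and RNA between cells. In brain endothelium, inflammatory signals act through NF-kB, which induces chemokines, cytokines and its own inhibitors, and type I interferon acts through a transcription factor complex that binds the interferon-stimulated response element.

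The 12 libraries held 16643961 to 21319005 counts, and 14650 to 15196 genes had at least 10 counts. The EV-Control libraries were spread along the second principal component, from -26.1 to -12.1, and Epinephrine library 2 stood apart on the fourth component (-29.2, against 24.5 and 10.3 for the other Epinephrine libraries). The median SD of log2 CPM (CPM being counts scaled to a common library size) was 0.0996 in Control, 0.140 in Epinephrine, 0.113 in EV-Control and 0.0890 in EV-Epinephrine. Defining endothelial genes were present in every group, PECAM1 at 151 to 277 CPM and CDH5 at 194 to 275 CPM on average, while EMCN, PLVAP and NOS3 stayed under 1 CPM. Markers of leukocytes summed to 3.82 to 6.89 CPM over 13 genes and those of red cells and platelets to 0.707 to 1.87 CPM over 10 genes.

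The interaction passed an adjusted p of 0.05 for 3284 genes by the quasi-likelihood test of edgeR, adjusted by the method of Benjamini and Hochberg (21.0% of those tested). It was above 0 (vesicle response higher than direct response) for 1571 genes (10.0%) and below 0 for 1713 (10.9%). Its size exceeded 1 on the log2 scale for 284 of the former and 387 of the latter. The gene just inside the threshold was PCDH9 (interaction 0.70, adjusted p 0.04996) and the one just outside was ARF4 (-0.19, adjusted p 0.05001). In the direct arm 1821 genes rose (11.6%) and 1735 fell (11.1%), and in the vesicle arm 977 rose (6.24%) and 1101 fell (7.03%). With scaling by total counts the vesicle arm had 1276 genes higher and 888 lower. Without Control library 2 the direct arm had 1212 genes higher. Without EV-Control library 1 the vesicle arm had 625 genes higher, and without EV-Epinephrine library 1, 2 or 3 it had 579, 615 or 617. Without EV-Epinephrine library 2 it had 728 genes lower.

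By their calls in the arms, 567 of the 3284 interaction genes were called in both arms with opposite signs, 1556 only in the direct arm, 722 only in the vesicle arm, 33 in both arms in the same direction and 406 in neither. A call in 1 arm alone is no difference between arms, and the interaction is the test of it. Of the 830 genes called in both arms, 567 had opposite signs (68.3%) and 263 had the same sign. Across the 15661 genes the Pearson coefficient of the direct and vesicle log2 fold changes was -0.20, a description across genes that are not independent replicates.

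**Figure D1:**
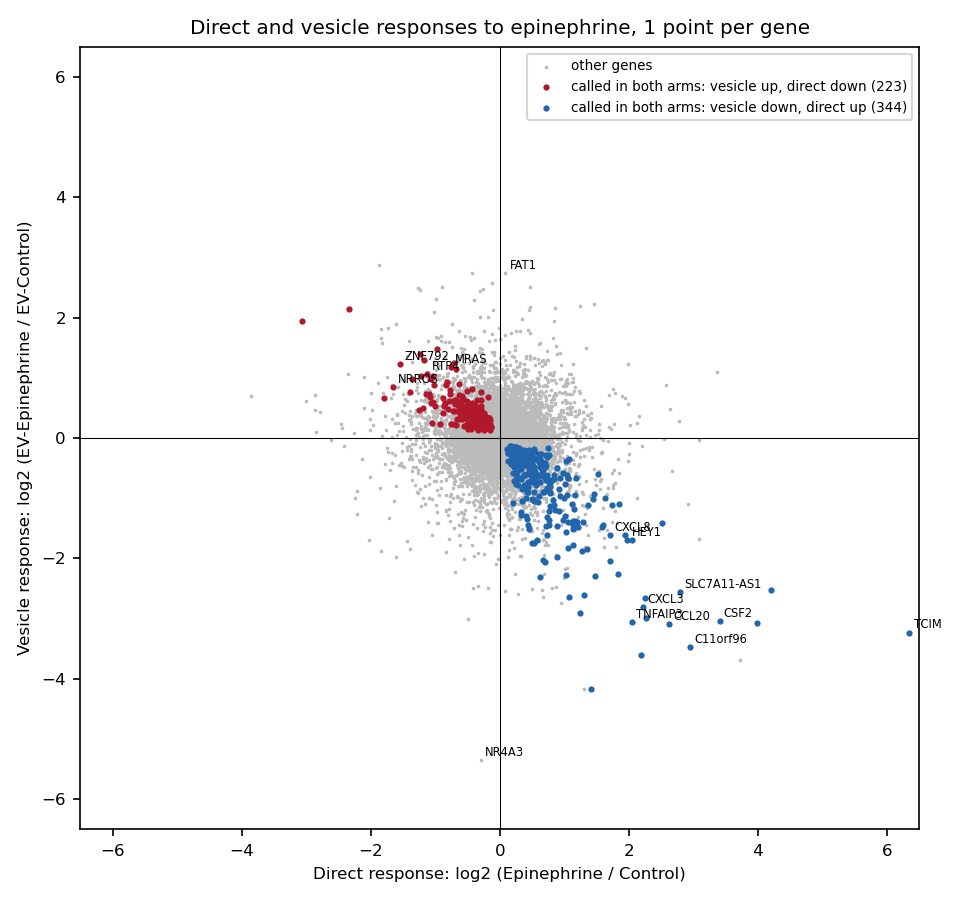
Each point is 1 of the genes tested, with the direct response (log2 Epinephrine over Control) on the x axis and the vesicle response (log2 EV-Epinephrine over EV-Control) on the y axis. The 344 blue genes fell with vesicles and rose with epinephrine, the 223 red genes did the reverse, NR4A3 and FAT1 moved in the vesicle arm alone, and the x position of TCIM, which had no count in Control, depends on the prior count of the fit.

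Vesicles of epinephrine-stimulated cells, against those of unstimulated cells, lowered 344 genes that epinephrine raised (2.20% of those tested). They raised 223 that epinephrine lowered (1.42%). The median log2 fold changes of the 344 were 0.44 in the direct arm and -0.49 in the vesicle arm, and those of the 223 were -0.41 and 0.35, beside medians of 0.01 and 0.01 over all genes tested. These members were chosen for calls in both arms, so their interaction, called for all 567, is no further support. The 344 made up 18.9% of the genes raised directly and 31.2% of those lowered by vesicles, and the 223 made up 12.9% and 22.8% of the reverse sets. In both arms the 3 libraries of one group lay wholly apart from the 3 of the other for 329 of the 344 and 218 of the 223, while over all genes tested 724 (4.62%) and 632 (4.04%) separated in these directions. This separation follows largely from the choice of members on the same libraries and is no further support either. Protein-coding genes made up 92.6% of the 344 and 96.4% of the 223, against 84.3% of all genes tested. A gene on the other strand overlapped 122 of the 344 and 73 of the 223, and reads of such pairs cannot be told apart if counting ignored strand, which is not stated. The share over all genes tested is not given here, so these counts do not set the members apart. With scaling by total counts the counts were 286 and 290. Without EV-Epinephrine library 1 or 3 the 223 became 134 or 145, and 157 of the 344 and 85 of the 223 kept both calls in all 12 fits that left out a library.

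The promoters of leading members are shown because chemokine and cytokine genes led the members that vesicles lowered, and interferon genes were frequent among those that vesicles raised. The stretches below are the 120 bases before the start given by RefSeq (GRCh38.p14), 5′ to 3′ on the strand of the gene, and capitals mark matches on either strand to the kB motif of NF-kB, which was chosen after seeing the data. The motif was searched as GGGRNNYYCC, with R for A or G, Y for C or T and N for any base. All of these stretches are from genes that epinephrine raised and vesicles lowered.
CXCL1 (chr4:73869273-73869392, + strand): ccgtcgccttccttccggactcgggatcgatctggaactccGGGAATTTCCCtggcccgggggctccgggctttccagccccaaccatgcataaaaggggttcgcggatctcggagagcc
CXCL2 (chr4:74099196-74099315, - strand): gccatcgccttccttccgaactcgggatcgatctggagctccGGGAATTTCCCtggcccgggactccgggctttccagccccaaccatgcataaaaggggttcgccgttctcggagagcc
CXCL3 (chr4:74038690-74038809, - strand): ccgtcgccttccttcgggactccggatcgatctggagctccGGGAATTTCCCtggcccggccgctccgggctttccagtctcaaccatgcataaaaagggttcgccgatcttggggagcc
CCL20 (chr2:227813722-227813841, + strand): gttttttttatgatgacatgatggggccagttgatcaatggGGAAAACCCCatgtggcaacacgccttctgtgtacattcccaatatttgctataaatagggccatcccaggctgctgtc
IL6 (chr7:22727080-22727199, + strand): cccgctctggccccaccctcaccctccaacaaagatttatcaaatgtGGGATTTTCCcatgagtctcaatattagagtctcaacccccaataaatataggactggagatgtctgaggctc
TNFAIP3 (chr6:137867139-137867258, + strand): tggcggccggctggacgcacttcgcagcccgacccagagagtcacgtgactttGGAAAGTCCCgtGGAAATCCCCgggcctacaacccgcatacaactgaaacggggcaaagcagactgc

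CXCL1, CXCL2 and CXCL3 lie in one cluster and share most of this stretch, so they are not independent examples. Their motif starts 78 or 79 bases before the gene start, that of CCL20 79 bases and that of IL6 73 bases before it, and TNFAIP3 has 2 motifs, starting 67 and 55 bases before it.

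The next promoters belong to interferon-induced genes that epinephrine lowered and vesicles raised. Capitals mark the core of the interferon-stimulated response element on either strand, searched as GAAA, any 2 bases and GAAA, which was also chosen after seeing the data.
IFIT1 (chr10:89392503-89392622, + strand): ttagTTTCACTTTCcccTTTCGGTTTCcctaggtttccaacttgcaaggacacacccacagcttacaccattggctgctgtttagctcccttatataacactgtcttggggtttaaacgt
RTP4 (chr3:187368265-187368384, + strand): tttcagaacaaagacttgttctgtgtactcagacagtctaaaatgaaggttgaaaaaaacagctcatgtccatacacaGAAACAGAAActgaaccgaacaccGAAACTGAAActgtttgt
IFI6 (chr1:27672193-27672312, - strand): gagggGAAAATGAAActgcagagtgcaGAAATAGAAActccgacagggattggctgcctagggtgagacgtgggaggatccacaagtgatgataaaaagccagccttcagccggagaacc

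Each of these 3 promoters holds 2 such elements, while those of OAS3 and IFI44L, searched but not printed, hold 1 each. All printed stretches hold a match, so they do not show how common a motif is in its set. RefSeq promoters (250 bases before the start) were found by symbol for 11177 of the 15661 genes tested, 166 of the 223 and 258 of the 344. The interferon core occurred in 15.7% of the 223 (26 genes), 3.10% of the 344 and 3.47% of all genes tested. The kB motif occurred in 23.5% of the 223, 19.0% of the 344 and 15.7% of all. The cAMP response element TGACGTCA occurred in 3.01% of the 223, 4.26% of the 344 and 3.42% of all, and its core TGACG, which the whole element contains, in 25.3%, 41.5% and 35.4%. The AP-1 motif TGANTCA occurred in 4.82%, 13.2% and 6.23%, and TGATGCAAT, the motif bound by ATF4 with its partners, in 1.21%, 0.388% and 0.170%. All motifs were searched on both strands, and a match is a description of letters, not of a bound site.

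Genes of endothelial activation led the set that vesicles lowered and epinephrine raised. Of 41 listed cytokines, chemokines, adhesion molecules and NF-kB regulators, 37 were tested, 27 had a negative and 2 a positive interaction, and the median interaction was -2.21, against 0.00 over all genes tested. Epinephrine raised 18 and lowered 3 of them, vesicles lowered 20 and raised 2, and 16 did both. CCL5 and CXCL11, 2 lymphocyte chemokines, moved the reverse way in both arms, CXCL11 at under 1.4 CPM in every library and with both arm calls kept in only 1 of 12 fits without 1 library. Across fits without 1 library the number with a negative interaction ran from 21 to 27. EV-Control was called above Control for 19 of the 37 and below for 1 (median 0.72), beside 10.1% and 7.94% of all genes tested.

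CCL20 (ENSG00000115009, chromosome 2, 227805739 to 227817564) encodes a chemokine for cells bearing CCR6. Its 3 libraries held 1.19, 1.53 and 2.18 CPM in Control and 10.3, 9.45 and 10.4 CPM in Epinephrine. They held 12.9, 9.54 and 5.44 CPM in EV-Control and 0.905, 1.34 and 1.02 CPM in EV-Epinephrine. No library of Epinephrine or EV-Control overlapped Control or EV-Epinephrine. The log2 fold change was 2.62 (SE 0.27) in the direct arm and -3.09 (SE 0.30) in the vesicle arm, and the interaction was -5.71 (SE 0.40, adjusted p 7.19e-09). CXCL3 (ENSG00000163734, chromosome 4, 74036589 to 74038807), a neutrophil chemokine, had 3.28 to 5.06 CPM in Control, 17.2 to 25.1 in Epinephrine, 10.8 to 19.7 in EV-Control and 1.54 to 3.10 in EV-Epinephrine. Its EV-Epinephrine libraries thus lay below those of Control. Its interaction was -5.04 (SE 0.42, adjusted p 8.23e-06).

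TNFAIP3 (ENSG00000118503, chromosome 6, 137867188 to 137883312) encodes A20, an inhibitor that NF-kB induces against itself. It had 68.9, 55.4 and 74.9 CPM in Control, 225, 232 and 366 in Epinephrine, 448, 327 and 222 in EV-Control and 40.1, 42.3 and 37.5 in EV-Epinephrine. Every Epinephrine and EV-Control library was above every Control and EV-Epinephrine library. Its log2 fold changes were 2.05 (SE 0.29) directly and -3.06 (SE 0.31) with vesicles, and its interaction was -5.10 (SE 0.43, adjusted p 5.49e-05). NFKBIA, which encodes the inhibitor that holds NF-kB in the cytoplasm, had 291 to 343 CPM in Control, 480 to 664 in Epinephrine, 539 to 721 in EV-Control and 157 to 166 in EV-Epinephrine, with an interaction of -2.87 (SE 0.20, adjusted p 1.30e-05).

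The cytokine IL6 (ENSG00000136244, chromosome 7, 22725884 to 22732002) had 35.7 to 53.1 CPM in Control and 130 to 138 in Epinephrine. In EV-Control it had 127 to 143 CPM, and in EV-Epinephrine 48.4 to 52.0. Its Epinephrine and EV-Control levels overlapped each other, as did those of Control and EV-Epinephrine. The cytokine IL1B (ENSG00000125538, chromosome 2, 112829751 to 112836903) showed the same order, with 14.9 to 23.3, 77.0 to 85.4, 68.8 to 80.9 and 21.8 to 25.0 CPM in Control, Epinephrine, EV-Control and EV-Epinephrine. The interaction was -3.05 (SE 0.14, adjusted p 7.62e-10) for IL6 and -3.74 (SE 0.16, adjusted p 2.46e-10) for IL1B. The neutrophil chemokine CXCL8 had 87.7 to 152, 348 to 406, 205 to 221 and 64.0 to 72.6 CPM in the same 4 groups, so its EV-Control libraries lay below those of Epinephrine and above those of Control, and its interaction was -3.33 (SE 0.25, adjusted p 2.59e-05).

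CSF2, which encodes the growth factor GM-CSF, had the largest negative interaction among genes of at least 5 CPM in some group (-6.44, SE 1.13, adjusted p 0.00409). Its libraries were spread, with 0.345 to 0.648 CPM in Control, 2.60, 4.52 and 8.71 in Epinephrine, 15.1, 5.76 and 3.31 in EV-Control and 0.643 to 1.33 in EV-Epinephrine. Its direct call (log2 3.41, SE 0.86, adjusted p 0.0216) or its vesicle call (-3.04, SE 0.74, adjusted p 0.0299) was lost in 7 of the 12 fits without 1 library: those without any 1 of the Control or EV-Epinephrine libraries and that without Epinephrine library 3. CXCL1 kept both calls in 7 of the 12, and lost one without Control library 1 or 2 or any 1 EV-Epinephrine library. The adhesion molecule VCAM1 had an interaction of -2.99 (SE 0.71, adjusted p 0.0181), with log2 fold changes of 1.37 (adjusted p 0.0936) and -1.62 (adjusted p 0.0715) that did not pass in either arm. ICAM1, another leukocyte adhesion molecule, fell in the vesicle arm alone (log2 -1.13, SE 0.21), with an interaction of -1.24 (SE 0.30, adjusted p 0.0198) that did not pass without EV-Epinephrine library 1 (-1.22, adjusted p 0.0507). SELE, the endothelial selectin, chosen after its values were seen and below the level set for naming, had the most negative interaction on the list (-7.41, SE 1.86, adjusted p 0.0221), with 0.109 to 0.270 CPM in Control, 1.35 to 4.57 in Epinephrine, 0.0561 to 5.35 in EV-Control and 0.120 to 0.234 in EV-Epinephrine, and no call in either arm.

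**Figure D2:**
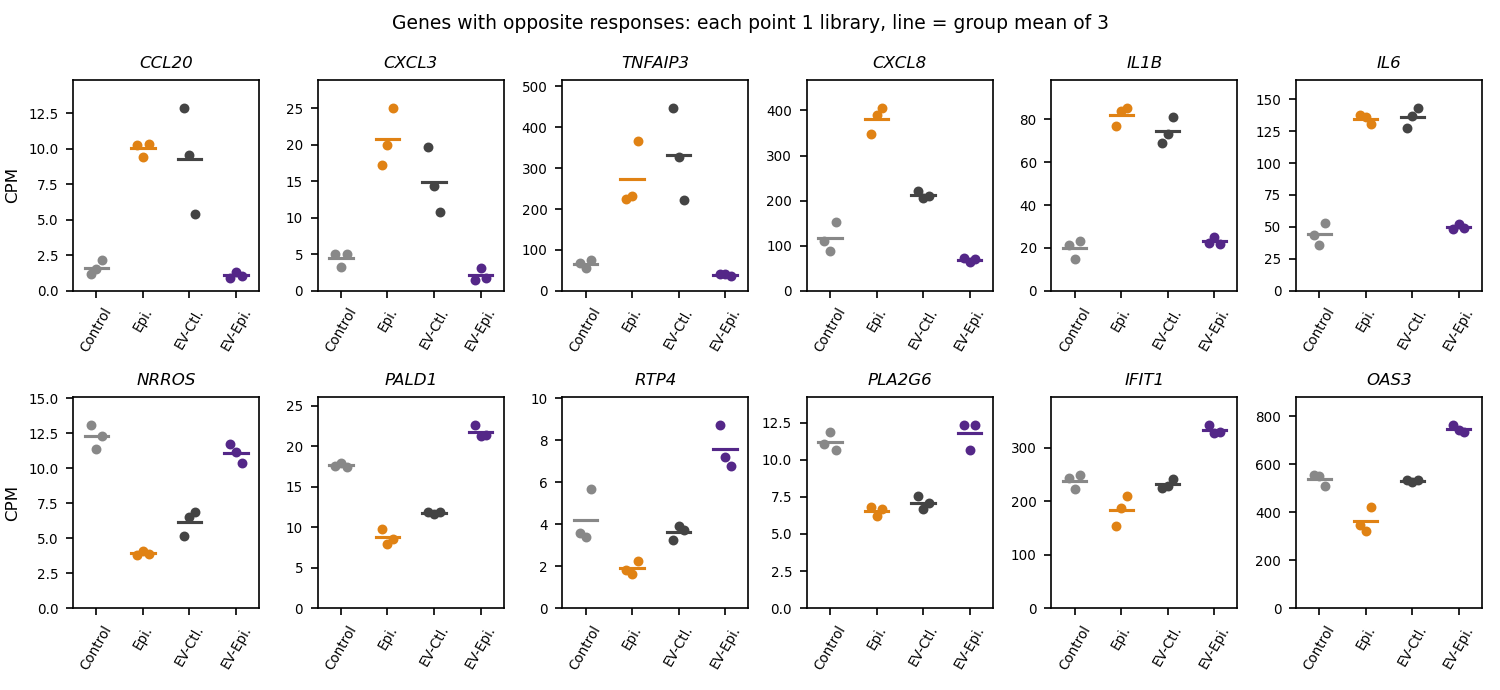
Each panel shows 1 gene, with CPM on a y axis that starts at 0 and the 4 groups on the x axis (Epi., Epinephrine; EV-Ctl., EV-Control; EV-Epi., EV-Epinephrine). Points are libraries and lines are means of 3. In the upper row Epinephrine and EV-Control are the high groups, and in the lower row EV-Epinephrine lies above EV-Control and Epinephrine below Control.

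Among the other members with the largest movement in both arms, C11orf96 (ENSG00000187479, chromosome 11, 43942505 to 43944338), a gene of little known function, had 5.29 to 6.01 CPM in Control, 33.6 to 50.1 in Epinephrine, 58.1 to 96.6 in EV-Control and 6.28 to 7.37 in EV-Epinephrine. Its interaction was -6.42 (SE 0.34, adjusted p 1.17e-06). GEM, a small GTPase that restrains calcium channels, had 2.29 to 2.76, 9.14 to 17.3, 18.2 to 36.9 and 3.04 to 3.94 CPM, and HEY1, a transcription factor downstream of Notch, had 1.57 to 1.91, 6.11 to 7.91, 6.11 to 10.9 and 2.45 to 3.41 CPM in Control, Epinephrine, EV-Control and EV-Epinephrine. For both genes Epinephrine and EV-Control lay above both other groups, and those of HEY1 overlapped each other while GEM was higher in EV-Control. TCIM, below the level set for naming and chosen after its values were seen, had no counts in any Control library, 0.522 to 0.612 CPM in Epinephrine, 0.617 to 1.04 in EV-Control and at most 0.179 in EV-Epinephrine.

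SLC7A11, the cystine importer that feeds glutathione synthesis, and its antisense gene SLC7A11-AS1 both rose with epinephrine and fell with vesicles, a pair to which the doubt about strand applies. SLC7A11 had 281 to 288 CPM in Control, 465 to 589 in Epinephrine, 297 to 393 in EV-Control and 208 to 222 in EV-Epinephrine (interaction -1.60, SE 0.15, adjusted p 3.97e-05). Of 32 listed heat shock and oxidative stress genes, 31 were tested, 15 had a negative and 3 a positive interaction (median -0.20). Epinephrine raised 16 and lowered 2, and vesicles raised 4 and lowered 8. GCLM, a subunit of the enzyme that starts glutathione synthesis, had 103 CPM in each Control library, 162 to 189 in Epinephrine, 111 to 121 in EV-Control and 90.2 to 98.0 in EV-Epinephrine, with an interaction of -1.04 (SE 0.08, adjusted p 3.14e-10).

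Most of the genes that cAMP and CREB are known to induce had lower vesicle than direct responses. Of 38 listed targets 32 were tested, 23 had a negative interaction and 2 a positive one, and the median interaction was -1.31. Vesicles lowered 20 and raised none (at an unadjusted p under 0.05 also 0, and by DESeq2 21 lowered and 0 raised), whereas epinephrine raised 10 and lowered 7, and 8 fell with vesicles and rose with epinephrine. The median log2 fold change of the 32 was -1.11 with vesicles and 0.12 with epinephrine. EV-Control was called above Control for 20 of the 32 and below for 2 (median 0.93), beside 10.1% and 7.94% of all genes tested.

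NR4A3 (ENSG00000119508, chromosome 9, 99821855 to 99866891), an orphan nuclear receptor induced early after cAMP signals, had 12.8, 12.7 and 12.7 CPM in Control and 8.81, 8.17 and 13.9 in Epinephrine. It had 141, 82.7 and 28.8 CPM in EV-Control and 2.66, 1.64 and 1.79 in EV-Epinephrine. The direct groups overlapped, and each EV-Epinephrine library lay below every other library. Its vesicle log2 fold change was -5.35 (SE 0.70, adjusted p 0.00142), its direct one -0.29 (SE 0.61, adjusted p 0.789) and its interaction -5.06 (SE 0.97, adjusted p 0.00654). Its relatives showed the same order of groups with tighter libraries: NR4A2 had 109 to 122 CPM in Control, 90.6 to 116 in Epinephrine, 304 to 379 in EV-Control and 55.4 to 63.8 in EV-Epinephrine, and NR4A1 had 187 to 204, 157 to 200, 360 to 464 and 142 to 158. For NR4A1, EV-Epinephrine and Epinephrine overlapped. The interactions of NR4A2 and NR4A1 were -2.32 (SE 0.14, adjusted p 2.41e-07) and -1.33 (SE 0.16, adjusted p 1.78e-04).

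SIK1, a kinase that CREB induces and that restrains CREB coactivators, fell in both arms, from 146 to 151 CPM in Control to 65.8 to 79.5 in Epinephrine and from 175 to 208 in EV-Control to 67.3 to 77.7 in EV-Epinephrine. Its interaction of -0.43 (SE 0.10, adjusted p 0.00393) is a difference in size. PDK4, a kinase that limits pyruvate oxidation, moved in opposite directions, with 71.4 to 85.5 CPM in Control, 150 to 194 in Epinephrine, 130 to 199 in EV-Control and 44.0 to 48.7 in EV-Epinephrine (interaction -2.91, SE 0.23, adjusted p 3.48e-05). GDF15, a stress cytokine, was 1 of the 2 exceptions of the list, with 85.1 to 95.5 CPM in Control, 51.3 to 59.4 in Epinephrine, 57.1 to 62.9 in EV-Control and 58.9 to 60.3 in EV-Epinephrine.

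The receptors and enzymes of the pathway were split. Of 47 listed genes of adrenergic and cAMP signalling 35 were tested, and the median interaction was 0.00. It was positive for 5 and negative for 5, 28.6% of those tested beside 21.0% of all genes tested. Without EV-Control library 1 or EV-Epinephrine library 3, 3 were positive. ADRB1, the beta-1 receptor, fell with epinephrine, from 13.29, 13.16 and 10.97 CPM to 7.25, 9.45 and 6.78, and its interaction of 0.46 (SE 0.18, adjusted p 0.0796) did not pass. RAPGEF3, which encodes EPAC1, had 6.55 to 7.81 CPM in Control, 3.67 to 5.85 in Epinephrine, 3.64 to 4.55 in EV-Control and 6.55 to 6.87 in EV-Epinephrine (interaction 1.35, SE 0.24, adjusted p 1.43e-04), and its direct call was lost without Epinephrine library 3 (adjusted p 0.0564). The phosphodiesterase PDE4B, which breaks down cAMP, fell in the vesicle arm alone, from 116 to 164 CPM to 51.5 to 57.2 (interaction -1.14, SE 0.16, adjusted p 3.52e-04).

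Immediate early genes are transcribed without new protein synthesis, and many encode transcription factors. They had 17 negative and 2 positive interactions among 33 tested of 34 listed, with a median of -0.62. EV-Control was called above Control for 14 of the 33 and below for 1 (median 0.44), beside 10.1% and 7.94% of all genes tested. Vesicles lowered 19 and raised none (1 at an unadjusted p under 0.05, 1 by DESeq2), and epinephrine raised 10 and lowered 5. NR4A1, FOSB, ATF3, KLF4 and BTG2 are also on the CREB list, so the likeness of those lists partly counts the same genes again. Other lists share members too, such as LIF, IL11 and PTGS2 on the CREB and activation lists. ATF3 had 198 to 283 CPM in Control, 305 to 427 in Epinephrine, 561 to 684 in EV-Control and 108 to 140 in EV-Epinephrine (interaction -2.93, SE 0.25, adjusted p 6.60e-05). Its direct rise (log2 0.62, adjusted p 0.0370) did not pass in 6 of the 12 fits, those without Control library 2 or 3, Epinephrine library 2 or 3, EV-Control library 2 or EV-Epinephrine library 2. FOS, the best known member, had 162 to 488 CPM in Control and 45.3 to 364 in EV-Control, and its interaction of 1.23 (SE 0.97, adjusted p 0.441) did not pass. EGR1 had log2 fold changes of 1.03 and 0.94 in the direct and vesicle arms, neither of which passed (adjusted p 0.0720 and 0.128), and an interaction of -0.09 (SE 0.49, adjusted p 0.930) that was 0.39 without EV-Control library 3. Feedback inhibitors of MAP kinase signalling were split, with 6 positive and 8 negative interactions among all 23 listed: DUSP10 fell with vesicles and rose with epinephrine (interaction -2.34, SE 0.25), while DUSP4 did the reverse (0.88, SE 0.11).

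Interferon-induced genes moved the other way. Of 40 listed, 39 were tested, 32 had a positive and 2 a negative interaction (31 to 32 positive across fits without 1 library), and the median interaction was 0.62. Epinephrine lowered 22 and raised 2, vesicles raised 24 and lowered 2, and 16 did both. OAS3, a sensor that activates RNase L, had 554, 549 and 511 CPM in Control and 345, 320 and 423 in Epinephrine. It had 534, 527 and 535 CPM in EV-Control and 765, 741 and 736 in EV-Epinephrine. Control and EV-Control overlapped, Epinephrine lay below both and EV-Epinephrine above both. Its log2 fold changes were -0.57 (SE 0.07) and 0.49 (SE 0.07), with an interaction of 1.06 (SE 0.10, adjusted p 2.66e-06).

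IFIT1, which binds foreign capped RNA, had 224 to 249 CPM in Control, 153 to 210 in Epinephrine, 224 to 242 in EV-Control and 329 to 344 in EV-Epinephrine (interaction 0.91, SE 0.12, adjusted p 1.31e-04), and its direct fall did not pass without Epinephrine library 2 (adjusted p 0.0528). IFI6 differed in the order of its groups, since EV-Control (674 to 700 CPM) lay below Control (918 to 930), with 548 to 742 in Epinephrine and 889 to 937 in EV-Epinephrine (interaction 0.90, SE 0.11, adjusted p 5.27e-05). RSAD2, an antiviral enzyme whose gene overlaps CMPK2 on the other strand, had the largest positive interaction on the list (1.39, SE 0.24, adjusted p 0.00349), but its vesicle rise (log2 0.61, adjusted p 0.0463) was lost in 10 of the 12 fits without 1 library, all except those without Epinephrine library 1 or 3. OAS3, IFIT1 and IFI6 were chosen from the list after their values were seen.

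The 2 genes of the interferon list with a negative interaction were IRF1, which is also induced through NF-kB, and ISG20, a nuclease. IRF1 had 40.1 to 48.1 CPM in Control, 79.9 to 122 in Epinephrine, 95.1 to 197 in EV-Control and 50.0 to 52.6 in EV-Epinephrine (interaction -2.51, SE 0.41, adjusted p 0.00282). It kept both of its arm calls in 5 of the 12 fits, and lost one without any 1 of the Control or EV-Epinephrine libraries or without Epinephrine library 3.

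**Figure D3:**
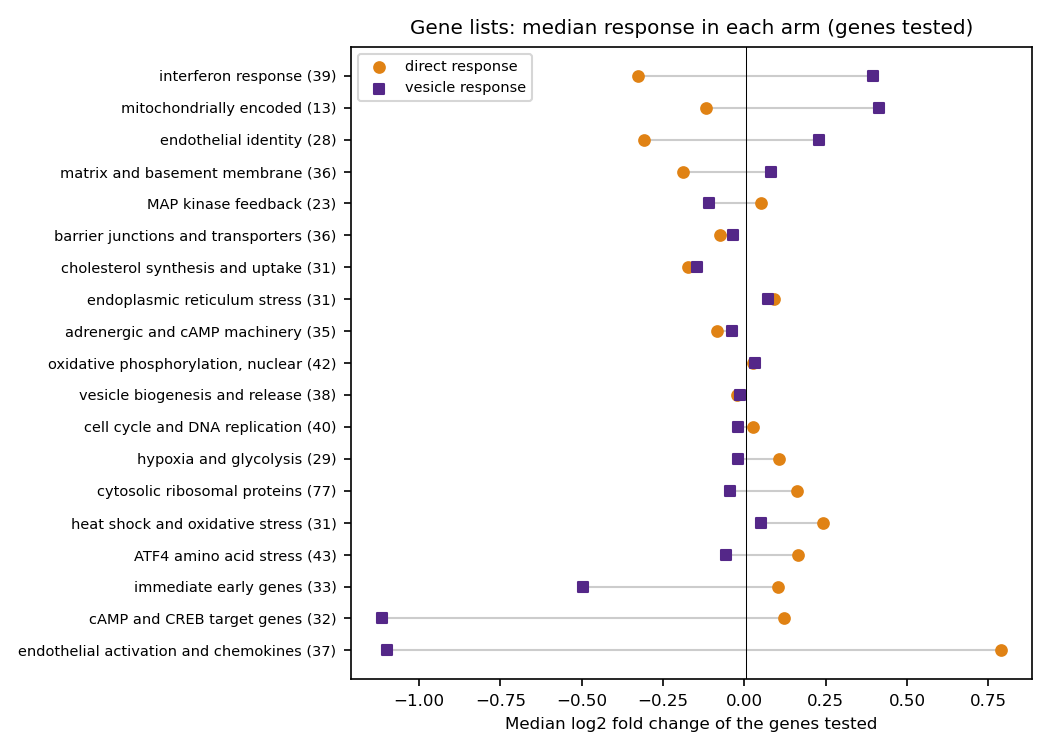
For each gene list (number of genes tested in brackets) the x axis gives the median log2 fold change in the direct arm (circles) and the vesicle arm (squares), and the vertical line marks the median of all genes tested. Activation genes lie at 0.79 and -1.10, interferon genes at -0.33 and 0.39, and nuclear genes of oxidative phosphorylation at 0.03 and 0.03.

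The genes with the largest movement in both arms that vesicles raised were of diverse function. NRROS (ENSG00000174004, chromosome 3, 196639686 to 196662004), which binds latent TGF-beta, had 13.1, 11.4 and 12.3 CPM in Control and 3.79, 4.12 and 3.86 in Epinephrine. It had 5.16, 6.49 and 6.89 CPM in EV-Control and 11.8, 11.2 and 10.4 in EV-Epinephrine. No Epinephrine or EV-Control library reached the lowest of the other groups. Its log2 fold changes were -1.65 (SE 0.14) and 0.84 (SE 0.13), with an interaction of 2.49 (SE 0.19, adjusted p 3.14e-10). PALD1 (ENSG00000107719, chromosome 10, 70478821 to 70568449), a phosphatase-like protein of endothelium, had 17.5 to 18.0, 7.88 to 9.79, 11.6 to 11.9 and 21.3 to 22.6 CPM in Control, Epinephrine, EV-Control and EV-Epinephrine, 4 ranges that did not touch (interaction 1.90, SE 0.14, adjusted p 1.86e-10). RTP4 (ENSG00000136514, chromosome 3, 187368332 to 187372076), an interferon-induced chaperone, had 3.39 to 5.69, 1.62 to 2.26, 3.26 to 3.89 and 6.75 to 8.73 CPM (interaction 2.19, SE 0.30, adjusted p 4.13e-06).

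VIPR1, a receptor for vasoactive intestinal peptide that couples to cAMP, had 18.6 to 21.1 CPM in Control and 4.64 to 6.71 in Epinephrine. It had 3.92 to 4.91 CPM in EV-Control and 6.81 to 7.60 in EV-Epinephrine, so its vesicle rise (log2 0.66, SE 0.15) left it far below Control, and its interaction was 2.45 (SE 0.20, adjusted p 7.58e-10). ZNF792, a zinc finger gene, had the largest positive interaction among genes of at least 5 CPM in some group (2.78, SE 0.33, adjusted p 4.59e-07), with 4.94 to 6.39, 1.60 to 2.43, 1.41 to 3.36 and 5.32 to 6.02 CPM in the 4 groups in the same order. EIF4A1, a helicase of translation initiation, also moved in opposite directions (interaction 2.05, SE 0.29), but it lies within a read-through gene on the same strand, so its low level of 7.53 to 25.0 CPM is uncertain.

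Genes of endothelial identity had mostly positive interactions. Of 30 listed genes of endothelial identity 28 were tested, and 15 had a positive and 4 a negative interaction (median 0.47). Epinephrine lowered 14 and raised 2, and vesicles raised 9 and lowered 4. EV-Control was called below Control for 18 of the 28 and above for 2 (median -0.44), beside 7.94% and 10.1% of all genes tested. The adhesion molecule ESAM had 24.5, 25.0 and 25.3 CPM in Control, 13.1, 14.8 and 13.6 in Epinephrine, 13.5, 12.6 and 10.99 in EV-Control and 17.5, 19.6 and 18.1 in EV-Epinephrine. Every EV-Epinephrine library was above EV-Control and below Control, and the interaction was 1.42 (SE 0.14, adjusted p 1.71e-08). CD34 had 98.6 to 107, 60.1 to 75.5, 56.0 to 58.9 and 73.7 to 76.6 CPM in Control, Epinephrine, EV-Control and EV-Epinephrine (interaction 0.99, SE 0.10), and PECAM1 264 to 293, 228 to 249, 149 to 154 and 176 to 180 (0.45, SE 0.07). The negative ones included the transcription factors ETS2 (-0.84), ETS1 (-0.83) and SOX17 (-0.78). Summed over the 30 genes, the list had 2565 to 2615 CPM in Control and 2247 to 2358 in Epinephrine. The sums of EV-Control (1991 to 2110) and EV-Epinephrine (2041 to 2118) overlapped. In bulk RNA, fewer cells that express a gene and less of its RNA per cell cannot be told apart.

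CLDN5, the main claudin of brain endothelial tight junctions, fell with epinephrine from 45.4 to 52.2 CPM to 22.5 to 28.7 (log2 -0.89, SE 0.09). Its vesicle difference, from 14.4 to 16.1 CPM to 17.2 to 19.2, was 0.22 (SE 0.10, adjusted p 0.163) and did not pass, although the libraries did not overlap, and the interaction was 1.11 (SE 0.13, adjusted p 5.58e-07). CDH5, which encodes VE-cadherin, fell with epinephrine (log2 -0.44, SE 0.05) and had a vesicle difference of 0.00 (SE 0.05). Of 38 listed barrier genes 36 were tested, with 7 positive and 10 negative interactions and a median of 0.07. TFRC, the transferrin receptor that brings iron into brain endothelium, was a negative one, with 250 to 263 CPM in Control, 391 to 434 in Epinephrine, 342 to 366 in EV-Control and 245 to 258 in EV-Epinephrine (interaction -1.18, SE 0.07, adjusted p 1.18e-12).

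Matrix genes had 17 positive and 4 negative interactions among 36 tested of 42 listed (median 0.25), 21 lowered and 4 raised by epinephrine, and 9 raised and 5 lowered by vesicles. COL1A2 had 204 to 222, 132 to 143, 130 to 143 and 178 to 188 CPM in Control, Epinephrine, EV-Control and EV-Epinephrine (interaction 1.02, SE 0.07, adjusted p 8.27e-11), and TIMP1, an inhibitor of matrix proteases, had 142 to 154, 194 to 238, 138 to 145 and 112 to 114 (-0.84, SE 0.08, adjusted p 2.80e-08). Markers of fibroblasts and of pericytes and smooth muscle moved the same way. COL1A1 and COL1A2 are on both the matrix and the fibroblast list, so the likeness of those lists partly counts the same genes again. The 10 fibroblast markers summed to 277 to 310 CPM in Control, 199 to 213 in Epinephrine, 230 to 258 in EV-Control and 334 to 344 in EV-Epinephrine, mostly through COL1A1 and COL1A2, with 3 positive and 0 negative interactions among 6 tested (1 negative at an unadjusted p under 0.05, 0 by DESeq2), while DPT had no count and DCN and PDGFRA stayed under 0.2 CPM on average. The 14 pericyte and smooth muscle markers summed to 1563 to 1672, 1343 to 1434, 1380 to 1428 and 1540 to 1590 CPM, with 4 positive and 1 negative interaction among 11 tested and no count of KCNJ8. Their part in the matrix result was not tested.

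Mitochondrially encoded genes rose in EV-Epinephrine against EV-Control. All 13 were tested, 11 rose in the vesicle arm, 2 fell in the direct arm, and 10 had a positive interaction (median 0.48), with 0 negative by edgeR, at an unadjusted p under 0.05 or by DESeq2. Without Control library 1 or 2, Epinephrine library 1 or EV-Epinephrine library 2, the number was 6. MT-CYB, a subunit of respiratory complex III, had 1424 to 1620 CPM in Control, 1275 to 1418 in Epinephrine, 1351 to 1675 in EV-Control and 2116 to 2335 in EV-Epinephrine (interaction 0.72, SE 0.10, adjusted p 1.50e-04). The 42 nuclear genes of oxidative phosphorylation did not follow: edgeR called 0 in the interaction (1 at an unadjusted p under 0.05, 0 by DESeq2), 4 without Epinephrine library 2 and 1 without Epinephrine library 1.

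Ribosomal protein genes differed by small amounts, with 25 negative and 0 positive interactions among 77 (median -0.20, 1 positive at an unadjusted p under 0.05 and 0 by DESeq2), 29 raised by epinephrine and 1 lowered by vesicles. Without Epinephrine library 1, 38 were negative. These genes have many near-identical copies, so single values are uncertain. RPS3A had 349 to 389 CPM in Control, 383 to 474 in Epinephrine, 420 to 441 in EV-Control and 384 to 395 in EV-Epinephrine.

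Of all 31 listed cholesterol genes, epinephrine lowered 16 and vesicles lowered 15 and raised 6, and the interaction was positive for 8 and negative for 2 (median 0.05). Epinephrine raised 0 (1 at an unadjusted p under 0.05, 0 by DESeq2). The positive ones included genes of sterol efflux and lipid synthesis: ABCA1, a cholesterol exporter, had 9.40 to 11.4 CPM in Control, 8.81 to 10.8 in Epinephrine, 7.17 to 9.77 in EV-Control and 18.5 to 19.2 in EV-Epinephrine (interaction 1.16, SE 0.18, adjusted p 2.08e-05). SREBF1, a regulator of fatty acid synthesis, had 132 to 146, 111 to 120, 139 to 145 and 216 to 227 CPM (0.93, SE 0.07, adjusted p 3.14e-10).

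In the remaining lists the counts of positive and negative interactions were 5 and 19 of 43 tested (44 listed) for amino acid stress genes of ATF4, 4 and 5 of 31 for endoplasmic reticulum stress, 1 and 11 of 29 for hypoxia and glycolysis, 1 and 4 of 40 for cell cycle, and 4 and 6 of 38 tested (42 listed) for vesicle biogenesis. The shares called in either direction were 55.8%, 29%, 41.4%, 12.5% and 26.3% of those tested, beside 21.0% of all genes tested. The medians of these lists were -0.28, 0.03, -0.15, -0.04 and -0.02. Counts this small moved by over 1.5 times without single libraries. Without Epinephrine library 2 the endoplasmic reticulum list had 8 positive, the cell cycle list 8 negative and the vesicle list 7 positive interactions. In the lists above, the share called was 87.2% for interferon, 78.4% for activation, 78.1% for CREB targets and 76.9% for mitochondrially encoded genes. It was 67.9% for endothelial identity, 60.9% for MAP kinase feedback, 58.3% for matrix and 58.1% for heat shock and oxidative stress genes. For immediate early genes it was 57.6%, for barrier genes 47.2%, for ribosomal proteins 32.5% and for cholesterol genes 32.3%. In the stress list of the endoplasmic reticulum, the chaperone HSPA5 rose in both arms, by 0.60 with epinephrine and 0.38 with vesicles on the log2 scale, whereas the transcription factor XBP1 had 98.7 to 102 CPM in Control, 137 to 168 in Epinephrine, 109 to 137 in EV-Control and 91.8 to 95.0 in EV-Epinephrine (interaction -1.01, SE 0.10, adjusted p 1.97e-07). PHGDH, the first enzyme of serine synthesis, went against its list, with 5.66 to 7.01 CPM in EV-Control and 13.4 to 14.9 in EV-Epinephrine beside 2.99, 3.66 and 3.996 in Control and 2.81 to 3.63 in Epinephrine. HSPA5 was chosen after its values were seen. Astrocyte markers had 0 positive and 2 negative interactions among 3 tested (0 positive at an unadjusted p under 0.05 and by DESeq2), epithelial markers 1 and 0 of 5 (0 negative by either), and neither leukocyte (4 tested) nor red cell and platelet markers (1 tested) had any in edgeR, at an unadjusted p under 0.05 or in DESeq2.

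Some of the largest interactions came from the vesicle arm alone. FAT1 (ENSG00000083857, chromosome 4, 186587783 to 186726722), a giant cadherin, had 0.918 to 2.57 CPM in Control, 1.16 to 2.16 in Epinephrine, 1.66 to 3.48 in EV-Control and 16.0 to 17.5 in EV-Epinephrine. Every EV-Epinephrine library was several times above all others. Its vesicle log2 fold change was 2.75 (SE 0.27), its direct one 0.08 (SE 0.39) and its interaction 2.66 (SE 0.48, adjusted p 8.70e-04). NOTCH3, a Notch receptor of mural cells, had 5.57 to 9.67, 5.27 to 7.58, 8.30 to 9.81 and 23.2 to 25.9 CPM in the 4 groups (interaction 1.76, SE 0.22, adjusted p 3.15e-06). The transcription factor FOXD1 had a vesicle log2 fold change of 1.49 (SE 0.23) and a larger interaction of 2.05, so its direct arm contributed too. From the direct arm alone came IL1RL1, the receptor of interleukin 33, chosen after its values were seen, with 1.03 to 1.21 CPM in Control, 6.88 to 8.87 in Epinephrine, 0.922 to 1.57 in EV-Control and 1.44 to 1.97 in EV-Epinephrine (interaction -2.49, SE 0.36, adjusted p 1.04e-05).

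The interaction rests on both control groups, which differed from each other. Against Control, EV-Control was higher for 1587 genes (10.1%) and lower for 1243 (7.94%), and with scaling by total counts these were 1273 and 1722. Without Control library 1 or 2 the number lower was 803 or 828. For the 344 genes that vesicles lowered and epinephrine raised, the median of EV-Control minus Control was 0.45 on the log2 scale. For the 223 it was -0.23. EV-Control was called above Control for 274 and below for 4 of the 344, and for 10 and 114 of the 223. The difference shares its Control libraries with the direct response and its EV-Control libraries with the vesicle response, so for genes chosen on both arms these values are a description and support nothing.

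The contrasts across the arms, chosen after seeing the data, share libraries in the same way. EV-Epinephrine against Control had a median of -0.04 for the 344 and 0.10 for the 223. It called 100 of the 344 and 102 of the 223, both larger shares than the 19.5% of all genes tested. EV-Control against Epinephrine had medians of 0.03 and 0.14. It called 113 of the 344 and 94 of the 223, also larger shares than the 16.4% of all genes tested.

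The other groups of the study show where these levels fall, with CPM scaled over all 30 libraries and given as the mean and SD of 3. TNFAIP3 had 65.0 ± 9.84 CPM in Control, 19.8 ± 0.382 in cells given C5a, 184 ± 10.3 with IL1b and 1424 ± 200 with TNF, beside 267 ± 77.4 with epinephrine. In the vesicle groups it had 325 ± 111 in EV-Control, 351 ± 52.2 in EV-C5a, 112 ± 12.1 in EV-IL1b, 112 ± 15.7 in EV-TNF and 39.0 ± 2.36 in EV-Epinephrine. EV-Control and EV-C5a overlapped at the top of the vesicle groups, EV-IL1b and EV-TNF overlapped below them, and EV-Epinephrine was lowest. CCL20 kept EV-Epinephrine lowest among the vesicle groups with 0.883 to 1.31 CPM, whereas C5a cells had at most 0.265. FAT1 had 15.6 to 17.1 CPM in EV-Epinephrine, 15.8 to 20.1 in EV-IL1b and 13.7 to 16.2 in EV-TNF, 3 ranges that overlapped, and at most 3.40 in every library of the other 7 groups. For NRROS, EV-Epinephrine (10.1 to 11.5 CPM) overlapped EV-IL1b and EV-TNF and lay above EV-Control and EV-C5a. These levels were read after the genes had been chosen and carry no test.

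**Figure D4:**
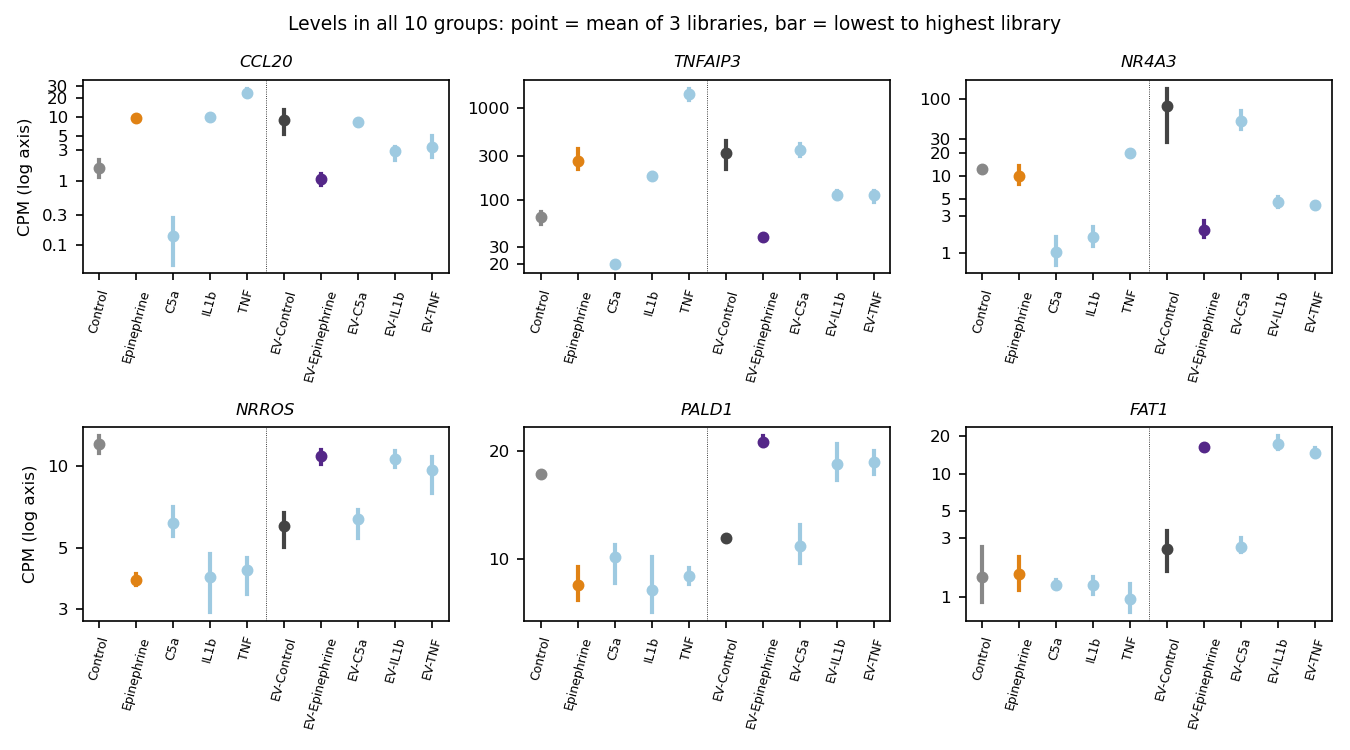
Each panel shows 1 gene in all 10 groups of the study, with CPM scaled over the 30 libraries on a log y axis, points are means of 3 libraries and bars run from the lowest to the highest library (drawn from 0.05 where a library has no count). Direct groups are left of the dotted line and vesicle groups right of it, and FAT1 is high in EV-Epinephrine, EV-IL1b and EV-TNF.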

How the data were processed

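Gene expression in hCMEC/D3 cells was measured by RNA sequencing of total RNA, and 12 of 30 libraries in 4 groups of 3 enter the tests. The authors deposited whole-number counts per gene, not normalized. The submitters' processing notes name hg38, STAR, FastQC, DESeq2 and R 4.4.1 with no role. Counting strand and annotation are not given in the sources used here. Of 63138 genes, 15661 passed edgeR's filterByExpr. Counts were scaled by TMM and fitted with edgeR 4.0.16 (R 4.3.3, quasi-likelihood, robust, Benjamini-Hochberg over all genes, threshold 0.05), and SEs are from the F statistic. CPM are counts relative to the scaled library total. The fit was tested on simulated data. Genes were named as the 8 largest interactions and 10 largest opposite movers per direction with at least 5 CPM in a group, up to 3 per list and direction, and a fixed list, with others said to be chosen after their values were seen. Members and lists were chosen with earlier results of these data known. Alternatives were DESeq2 1.42.0, total-count scaling, no filter, log2 thresholds, a fit of all 30 libraries, separate fits per arm, a replicate block and leaving out each library. Promoters came from RefSeq tables (GRCh38.p14). Library totals were 16643961 to 21319005 counts, so values of genes at a few CPM also carry counting noise. Some genes of the lists are not reported here by name.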

Additional observations from a re-analysis of the deposited data

Results flagged for a closer look

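The difference between the vesicle and direct responses, tested as an interaction, passed for 1571 genes that were higher and 1713 that were lower in the vesicle response. Of these, 223 rose with vesicles and fell with epinephrine, and 344 fell with vesicles and rose with epinephrine, each past the threshold in both arms.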

How the results depend on the processing

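Among single genes named, the uncalled interaction of EGR1 changed sign, from -0.43 to 0.39 over fits without 1 library (0.39 without EV-Control library 3), and no called interaction did. With a log2 size over 1 required, the interaction counts were 284 higher and 387 lower, the direct counts 152 and 153, the vesicle counts 117 and 199, and the control-difference counts 230 and 86. With over 0.5 required in both arms, the opposite genes were 48 vesicle up and 124 vesicle down, and over 1 they were 8 and 49. Leaving out 1 library at a time gave 1267 to 1898 higher and 1414 to 2157 lower interactions, 1212 to 2115 higher and 1283 to 1946 lower in the direct arm, 579 to 1280 higher and 728 to 1490 lower in the vesicle arm, 1189 to 2078 higher and 803 to 1632 lower between the controls, and 134 to 290 vesicle-up and 235 to 473 vesicle-down opposite genes. Scaling by total counts turned the balance of calls, with 1919 higher and 1430 lower interactions, 1276 and 888 in the vesicle arm and 1273 and 1722 between the controls, and it changed the sign of the cell cycle list's median interaction (from -0.04 to 0.01). The adrenergic list's median ran from -0.01 to 0.06 over fits without 1 library. A fit of all 30 libraries gave 793 opposite genes (562 of the 567 among them), separate fits of the arms 583 (453) and DESeq2 569 (535). Replicate numbers did not pair the samples (18 same-numbered pairs, r -0.03 to 0.02), and with the replicate block the interaction called 1502 higher and 1636 lower, the direct arm 1724 and 1651, the vesicle arm 895 and 1036, the controls 1506 and 1179, and 198 and 314 genes were opposite.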
